A study of Mus musculus with 6 samples.

Results

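The NFAT, EGR and NR4A transcription factors that switch on when a T cell receptor is engaged were examined in mouse Th17 cells, the helper T cell lineage that makes IL-17A and IL-17F. They were taken as the rows of the count table with the symbols Nfatc1, Nfatc2, Nfatc3, Egr1, Egr2, Egr3, Nr4a1, Nr4a2 and Nr4a3, 9 of the 31017 genes listed. All 9 were found, and all 9 passed the filter on low counts that left 14268 genes to test. The cells were differentiated in culture, and total RNA was sequenced from 3 libraries labelled WT (control) and 3 libraries labelled KO, which are deficient in RTF1. RTF1 acts in transcription elongation together with the PAF1 complex, and its known histone link is the ubiquitination of H2B. Mouse strain, age, the construct behind the KO, the stimulus and the length of culture are not given in the sources used here, and the labels do not say how many animals or cultures the replicates came from. The p-values therefore measure the spread between these libraries, which includes a difference in sex given below.

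Engagement of the T cell receptor opens calcium channels, and the phosphatase calcineurin then strips phosphate from NFAT proteins, which move into the nucleus and activate cytokine genes such as Il2. NFATc1, NFATc2 and NFATc3 are controlled mainly at this step, which RNA levels do not show. The zinc finger factors EGR1, EGR2 and EGR3 and the orphan nuclear receptors NR4A1 (also called NUR77), NR4A2 (NURR1) and NR4A3 (NOR1) are made anew after stimulation, from genes that are transcribed within a short time and whose RNA is short-lived. EGR1 is a classic immediate-early product of the MAP kinase pathway, EGR2 and EGR3 are known for restraining T cell receptor signalling, and the NR4A receptors are known for limiting effector responses and for their part in exhausted and regulatory T cells.

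The stretch of 250 bases before the start site was read for 4 of the inducible genes, to set the promoters of the 3 NR4A genes, which share a repeated motif, beside that of an EGR gene. Sequences are from RefSeq on GRCm38.p6, 5′ to 3′ on the gene's strand, and 6 of the 9 genes matched the RefSeq promoter table (Nfatc2, Nfatc3, Egr2, Nr4a1, Nr4a2 and Nr4a3). Where the table held several start sites, the one nearest to a protein-coding transcript start of GENCODE M21 was used; the distance was 152 bases for Nr4a3, 22 bases for Nfatc3 and 0 for the others. For Nr4a3 only the 98 bases that lie before the first exon of GENCODE are printed, with 3 of the 4 motif copies of its window. Capitals mark the core of the cAMP response element, TGACG on either strand, and in Egr2 also a CArG box, the element bound by serum response factor.
Nr4a1, chr15:101266596-101266845, plus strand: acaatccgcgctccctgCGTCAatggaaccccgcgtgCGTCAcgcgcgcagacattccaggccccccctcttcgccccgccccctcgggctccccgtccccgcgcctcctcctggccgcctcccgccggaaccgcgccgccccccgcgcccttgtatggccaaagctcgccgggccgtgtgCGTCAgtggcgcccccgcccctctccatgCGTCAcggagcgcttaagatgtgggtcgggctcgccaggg
Nr4a2, chr2:57124004-57124253, minus strand: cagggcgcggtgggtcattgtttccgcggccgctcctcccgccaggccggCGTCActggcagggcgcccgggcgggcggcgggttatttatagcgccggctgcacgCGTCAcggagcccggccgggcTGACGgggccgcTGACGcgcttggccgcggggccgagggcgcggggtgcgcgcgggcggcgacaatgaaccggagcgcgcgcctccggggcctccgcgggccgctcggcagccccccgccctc
Nr4a3, chr4:48045055-48045152, plus strand: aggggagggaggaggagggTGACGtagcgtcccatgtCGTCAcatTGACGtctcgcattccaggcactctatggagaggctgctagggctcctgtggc
Egr2, chr10:67537619-67537868, plus strand: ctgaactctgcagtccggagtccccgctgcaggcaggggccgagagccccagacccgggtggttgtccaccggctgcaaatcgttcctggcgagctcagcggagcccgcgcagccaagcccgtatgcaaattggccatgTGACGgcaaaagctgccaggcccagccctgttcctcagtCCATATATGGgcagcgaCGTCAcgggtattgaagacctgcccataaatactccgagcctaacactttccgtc

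Each of the 3 NR4A windows held 4 copies of TGACG. Of all 32851 promoter windows of this length, 17.8% held at least 1 copy and 0.137% held 4 or more. The NR4A windows were shown for this repeated motif, and the cut of 4 is the number seen in them. These percentages are therefore descriptions and not a test. The window of Egr2 held 2 copies and 1 CArG box, a box found in 1.47% of all windows. The full element TGACGTCA was in none of the 6 windows, against 1.55% of all. The windows of Nfatc3 and Nfatc2 held 1 and 0 copies of TGACG. The NFAT core GGAAA, on either strand, was present 1 time each in Nfatc2, Nfatc3, Egr2 and Nr4a2 and was not in the windows of Nr4a1 and Nr4a3, where 55.6% of all windows held it. An EGR site, GCGNGGGCG, was present in Nr4a1 and Nr4a2 (4.70% of all windows), and a MEF2 box in Nr4a2 (2.92% of all windows). The NR4A monomer site AAAGGTCA was in none of the 6 windows (1.34% of all). All motifs were searched on both strands, and no match of 1 motif overlapped a match of another in the 6 windows. A match describes the letters only, and no binding was measured.

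Library totals ran from 16489813 to 51271226 counts, and the 9 genes held between 331 and 13999 counts per library. Rtf1 was checked first and fell from 91.2 ± 2.84 to 33.9 ± 10.03 CPM (SD, n = 3; edgeR log2 fold change −1.42 with an SE of 0.191, adjusted p = 0.000755; by a two-sided exact permutation test p = 0.1, which is as low as 3 libraries against 3 can reach). Rtf1 held 94.0, 91.2 and 88.3 CPM in control replicates 1 to 3 and 45.3, 30.4 and 26.2 CPM in KO replicates 1 to 3. CPM are counts relative to library size, scaled by TMM factors. Of the T cell markers, all 7 were measured, with summed levels of 1985 to 2496 CPM in control and 1736 to 2176 CPM in KO, 2 of them called higher and 2 lower. Of 5 Th17 markers 4 were called lower (Il17a, Il17f, Ccr6 and Il23r; summed level 1315 to 1985 CPM in control and 486 to 1114 CPM in KO), and their part in the results was not tested. Y-linked counts were seen in replicate 3 of control and of KO (4 genes; 11376 counts in the control library and 5147 in the KO library), against 1 to 3 elsewhere, and Xist had 5 and 1 counts in these libraries against 14668 to 28176 elsewhere. By these genes replicate 3 of each group was male and replicates 1 and 2 were female, so each group held cells of both sexes. Control replicate 3 stood apart in the genes reported here. In 5 of the 9, namely Egr1, Egr2, Egr3, Nr4a1 and Nr4a3, it held no more than 0.5 times the mean of the other control libraries, a depth of drop shared by 1.02% of the 9807 genes averaging 5 CPM or more. KO replicate 3 was not low in any of the 9. The EGR and NR4A genes are therefore given with and without control replicate 3. As that library was picked by these same genes, p-values without it carry that choice.

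Of the 9 genes, 3 rose in KO and none fell: Nr4a2, Nr4a1 and Egr1. A gene was called at an edgeR adjusted p under 0.05, a threshold that 46.1% of all tested genes passed, 23.2% higher and 22.9% lower in KO. The share of the 9 that was called is thus not above the background. The median log2 fold change of the 9 was 0.47, against 0.013 over all tested genes. That median is the value of Egr2, which was not called and stood at 0.077 without control replicate 3. Every KO library lay above every control library in 4 of the 9 (29.9% of all tested genes) and below in 1, Nfatc3 (28.0%). An unadjusted edgeR p under 0.05 was found for these 3 genes and for Nr4a3, and for 7724 of all 14268 tested genes. DESeq2 called 4 higher (23.1% of all genes by that test) and none lower. In bulk RNA, fewer cells with a transcript and less of it per cell cannot be told apart.

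**Figure D1:**
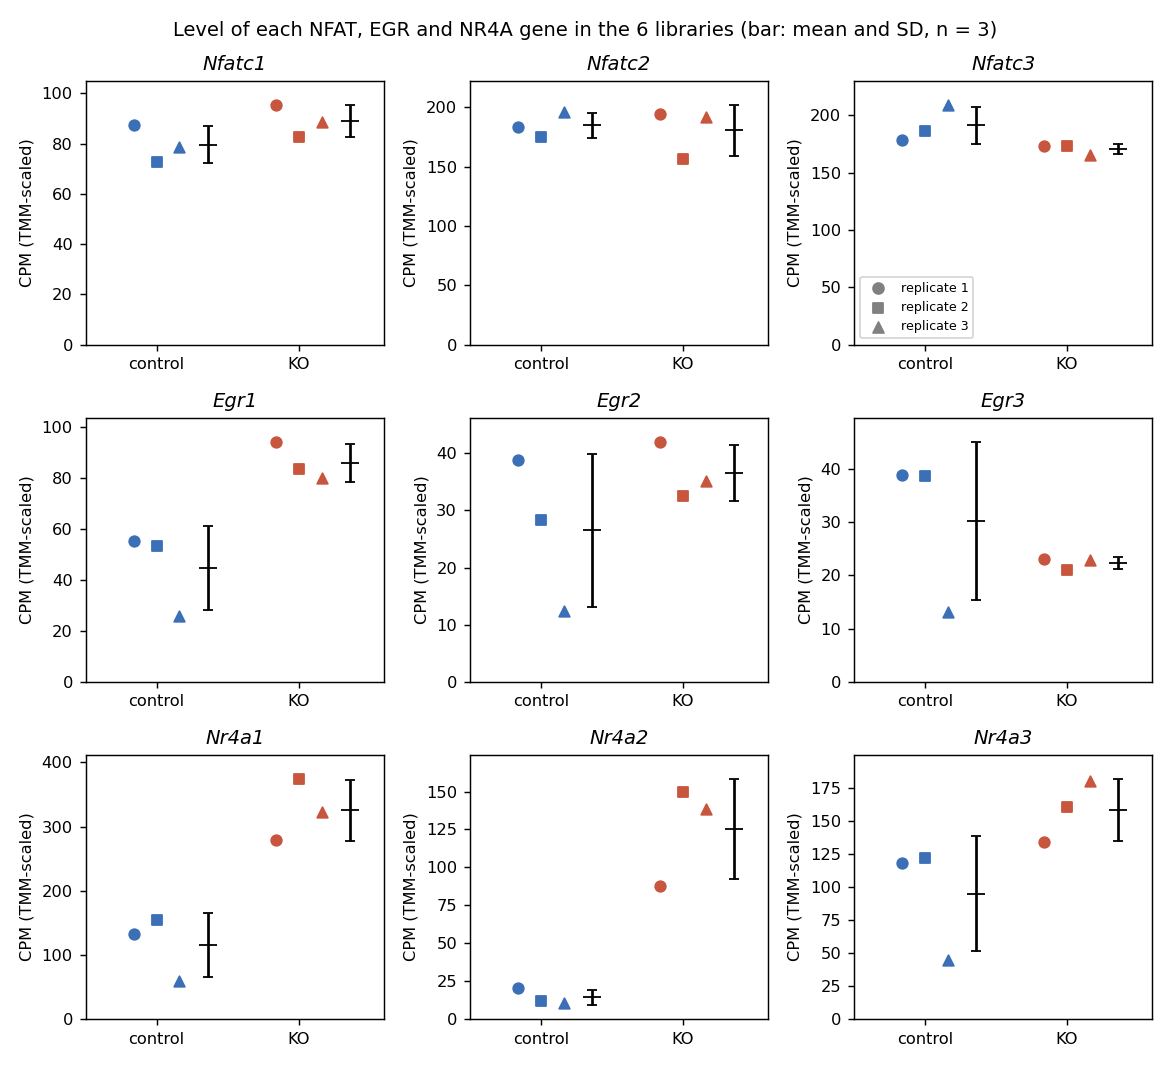
Level of each of the 9 genes in each library, as TMM-scaled CPM, with the axis of each panel starting at 0; symbols are replicates 1 to 3 and the black bar is the mean and SD of 3 libraries. Nr4a2 runs from 10.7 to 20.1 CPM in control and from 88.0 to 149.6 CPM in KO, the NFAT genes lie close together in both groups, and control replicate 3 (triangle) is the low point of the EGR and NR4A panels.

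Nr4a2 showed the widest difference of the 9. This gene, at chr2:57106830-57124003 on the minus strand, encodes NURR1. It held 20.1, 11.8 and 10.7 CPM in control replicates 1 to 3, and 88.0, 149.6 and 138 CPM in KO replicates 1 to 3. All KO libraries lay far above all control libraries, and the lowest KO value was that of replicate 1. The mean rose from 14.2 ± 5.15 to 125 ± 32.8 CPM (SD, n = 3; edgeR log2 fold change 3.16 with an SE of 0.286, adjusted p = 0.000163), a fitted ratio of 8.95. Of all tested genes, 1.74% were called with an increase of at least this size. Without control replicate 3 the log2 fold change was 2.95 (adjusted p = 6.23e-05).

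Nr4a1 (chr15:101254269-101274795), whose product NUR77 is widely used as a reporter of T cell receptor signal strength, also rose. Control replicates 1 to 3 held 132.5, 153.7 and 59.3 CPM, and KO replicates 1 to 3 held 279, 374 and 323 CPM. The groups did not overlap, and the lowest library was control replicate 3. The mean went from 115 ± 49.5 to 326 ± 47.3 CPM (SD, n = 3; edgeR log2 fold change 1.50 with an SE of 0.307, adjusted p = 0.00457), a fitted ratio of 2.83. Without control replicate 3 the log2 fold change was 1.12 (adjusted p = 0.000621).

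Nr4a3 (chr4:48045153-48086447), which encodes NOR1, did not pass the test. It held 117.8, 121.8 and 44.8 CPM in control replicates 1 to 3 and 133.7, 160.6 and 180.1 CPM in KO replicates 1 to 3. The groups did not overlap, but control replicates 1 and 2 lay just under KO replicate 1. The means were 94.8 ± 43.3 and 158 ± 23.3 CPM (SD, n = 3; edgeR log2 fold change 0.74 with an SE of 0.325, adjusted p = 0.0910). With the replicate number as a block it was called (0.85, adjusted p = 0.0331), in a fit that called 27.0% of all genes higher. Without control replicate 3 the difference was 0.34 (adjusted p = 0.0829).

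Among the EGR genes only Egr1 was called. Egr1 (chr18:34859823-34864984) held 55.2, 53.4 and 25.7 CPM in control replicates 1 to 3 and 94.1, 83.4 and 79.9 CPM in KO replicates 1 to 3. Every KO library was above every control library, and the KO libraries were closer together. The mean rose from 44.8 ± 16.5 to 85.8 ± 7.38 CPM (SD, n = 3; edgeR log2 fold change 0.94 with an SE of 0.256, adjusted p = 0.0160), a fitted ratio of 1.92. Without control replicate 3 the log2 fold change was 0.60 (adjusted p = 0.00369).

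Egr2 (chr10:67535475-67542188) and Egr3 (chr14:70077203-70082614) encode the EGR factors best known for restraint of T cell activation, and neither passed the test. Egr2 held 38.8, 28.3 and 12.3 CPM in control replicates 1 to 3 and 41.95, 32.6 and 35.1 CPM in KO replicates 1 to 3. The groups overlapped, with means of 26.5 ± 13.4 and 36.6 ± 4.85 CPM (SD, n = 3; edgeR log2 fold change 0.47 with an SE of 0.343, adjusted p = 0.285). In each same-numbered pair the KO library was the higher, and with the replicate block the difference was 0.59 (SE 0.243, adjusted p = 0.0648). Without control replicate 3 the difference was 0.077 (adjusted p = 0.732).

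Egr3 held 38.8, 38.7 and 13.0 CPM in control replicates 1 to 3 and 23.0, 20.9 and 22.9 CPM in KO replicates 1 to 3. The KO libraries lay between control replicate 3 and the other control libraries. The means were 30.2 ± 14.8 and 22.3 ± 1.17 CPM (SD, n = 3; edgeR log2 fold change −0.43 with an SE of 0.350, adjusted p = 0.336). Without control replicate 3 Egr3 was called lower (−0.86, SE 0.137, edgeR adjusted p = 0.000831), in a fit that called 25.8% of its tested genes lower. That library was chosen for its low values in these same genes, so the narrower spread follows in part from the choice. The control libraries left were female, while KO kept its male library. Egr3 was also called lower with replicate 3 of both groups left out (−0.82, edgeR adjusted p = 0.00143, 21.7% of all genes called lower). All libraries of that fit were female, and control replicate 3 was absent there too.

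The 3 NFAT genes did not pass the test in any of the fits run. Nfatc1 (chr18:80606205-80713071), whose product NFATc1 is itself induced by NFAT, held 87.5, 72.6 and 78.8 CPM in control replicates 1 to 3 and 95.4, 82.7 and 88.7 CPM in KO replicates 1 to 3. The groups overlapped, and in each same-numbered pair the KO library was the higher (edgeR log2 fold change 0.16 with an SE of 0.116, adjusted p = 0.284). Counts per gene do not separate the short and long isoforms of Nfatc1.

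Nfatc2 (chr2:168476410-168601657), which encodes a form present in resting T cells, held 183, 175 and 196 CPM in control replicates 1 to 3 and 194, 156 and 192 CPM in KO replicates 1 to 3 (edgeR log2 fold change −0.033 with an SE of 0.123, adjusted p = 0.846). The groups overlapped, and the sign of Nfatc2 turned under plain library-size scaling (0.053) and without KO replicate 2 (0.066). Nfatc3 (chr8:106058840-106130537) held 178, 187 and 209 CPM in control replicates 1 to 3 and 173, 174 and 166 CPM in KO replicates 1 to 3. Its KO libraries all lay below its control libraries, by a small margin (edgeR log2 fold change −0.16 with an SE of 0.109, adjusted p = 0.250). Of its exonic bases 1.87% overlap Esrp2 on the opposite strand, and the strand setting of the counting is not given in the sources used here. No other gene of the 9 overlapped an exon of another gene, and at most 0.128% of the 50-base stretches of any of them occur in transcripts of another gene.

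**Figure D2:**
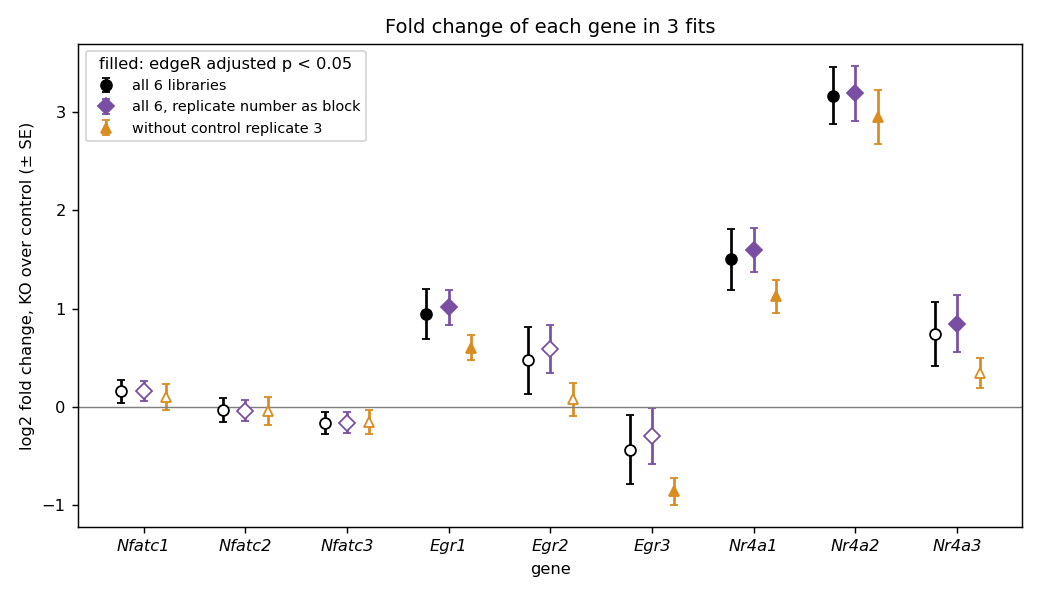
Log2 fold change of KO over control with its SE for each gene, from the fit on all 6 libraries, a fit blocked on replicate number, and a fit leaving out control replicate 3; filled symbols passed an edgeR adjusted p under 0.05. Nr4a2, Nr4a1 and Egr1 are filled and above 0 in each fit, Nr4a3 is filled with the block alone, and Egr3 is filled and below 0 without control replicate 3.

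The spread within control was much wider for the inducible genes than for the NFAT genes. The coefficient of variation over the control libraries was 36.3% to 50.4% for the EGR and NR4A genes and 5.80% to 9.41% for the NFAT genes. Over the KO libraries it was 5.26% to 26.2% and 2.56% to 11.8%. In control replicate 3, Egr3 stood at 0.337, Egr2 at 0.367, Nr4a3 at 0.374, Nr4a1 at 0.414, Egr1 at 0.473 and Nr4a2 at 0.672 times the mean of control replicates 1 and 2, and the NFAT genes at 0.985 to 1.15 times. In KO replicate 3 the corresponding ratios of all 9 genes lay between 0.901 and 1.22. The part of sex in these values was not tested.

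Myeloid cells also make EGR and NR4A RNA, and some of their markers moved with the groups. Of the 7 myeloid markers 4 were tested and 3 were called higher in KO (Csf1r, Fcer1g and Cd68). The summed level of all 7 was 2.64 to 5.35 CPM in control and 17.6 to 29.6 CPM in KO, most of it Cd68 (3.19 and 20.0 CPM on average). Without Cd68 the sum was 0.846 to 0.927 CPM in control and 2.51 to 4.32 CPM in KO. Lyz2 was not tested and had 0, 2 and 4 counts in control replicates 1 to 3 against 46, 11 and 8 in KO. The defining markers Adgre1 and Itgam had at most 5 and 3 counts in any library. Among CD8 and NK cell markers, Eomes was called higher (1, 8 and 3 counts in control against 35, 41 and 44 in KO; edgeR log2 fold change 3.78, adjusted p = 0.000946), while Ncr1 and Klrb1c were at 0. The CD8 genes were not called. Cd8b1 averaged 7.91 CPM in control and 6.42 CPM in KO (edgeR log2 fold change −0.31, adjusted p = 0.373), and Cd8a 0.449 and 0.773 CPM (0.68, adjusted p = 0.253). The part of these markers in the rise of Nr4a2, Nr4a1 and Egr1 was not tested.

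Levels of different genes were compared as CPM per kilobase of annotated exon. In control the order was Nr4a1 (32.8 ± 14.1), Nfatc2 (17.5 ± 1.01), Nfatc3 (16.3 ± 1.36), Nr4a3 (15.8 ± 7.24), Nfatc1 (10.7 ± 1.003), Egr1 (9.98 ± 3.69), Egr2 (7.80 ± 3.93), Egr3 (6.85 ± 3.37) and Nr4a2 (3.50 ± 1.27; SD, n = 3). The ranges over the 3 libraries overlapped between all neighbours in this order. In KO the order was Nr4a1 (92.8 ± 13.5), Nr4a2 (30.9 ± 8.08), Nr4a3 (26.4 ± 3.89), Egr1 (19.1 ± 1.65), Nfatc2 (17.1 ± 2.02), Nfatc3 (14.6 ± 0.374), Nfatc1 (11.9 ± 0.847), Egr2 (10.8 ± 1.43) and Egr3 (5.06 ± 0.266). Here the range of Nr4a1 lay above that of Nr4a2, Nr4a3 above Egr1, Nfatc3 above Nfatc1 and Egr2 above Egr3, while the ranges of the other neighbours overlapped. Nr4a2 thus moved from the last place to the second, beside its relative Nr4a3.

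**Figure D3:**
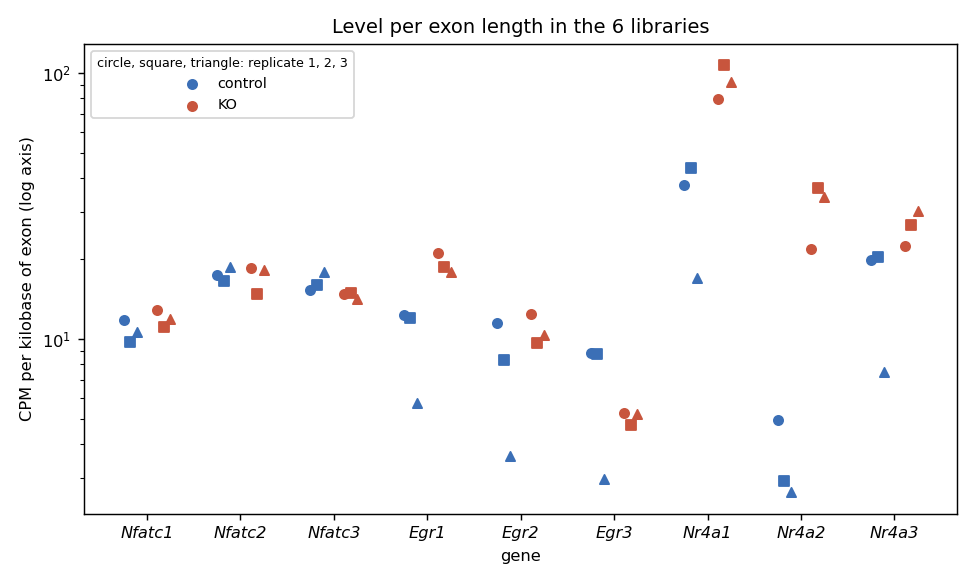
CPM per kilobase of annotated exon on a log axis for the 9 genes in each library, control in blue and KO in red. Nr4a2 lies at 2.64 to 4.96 in control and 21.7 to 36.8 in KO, while the NFAT genes lie between 9.72 and 18.5 in all 6 libraries.

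Ratios between family members within a library do not depend on how libraries are scaled. They are given as descriptions, with no test. Nr4a2 over Nr4a1, per kilobase, was 0.131, 0.0663 and 0.156 in control replicates 1 to 3 and 0.272, 0.346 and 0.370 in KO replicates 1 to 3. Nr4a2 over Nr4a3 was 0.143 to 0.353 in control and 0.970 to 1.37 in KO. Nr4a3 over Nr4a1 went the other way, 0.442 to 0.521 in control and 0.252 to 0.326 in KO. Of the summed NR4A level, Nr4a2 took 7.35% ± 2.77 in control and 20.3% ± 2.42 in KO, Nr4a3 29.8% ± 1.97 and 17.7% ± 1.77, and Nr4a1 62.8% ± 2.41 and 61.98% ± 2.78 (SD, n = 3).

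Within the EGR family, the share of Egr3 was smaller in KO. Egr3 over Egr2 was 0.771, 1.05 and 0.816 in control replicates 1 to 3 and 0.424, 0.496 and 0.502 in KO replicates 1 to 3. Egr1 over Egr3 was 1.40, 1.36 and 1.93 in control and 4.01, 3.91 and 3.43 in KO. Egr3 took 27.1% ± 3.10 of the summed EGR level in control and 14.5% ± 1.004 in KO, and Egr1 took 41.8% ± 4.40 and 54.8% ± 1.54, whereas Egr2 took 31.1% ± 3.49 and 30.7% ± 1.47 (SD, n = 3). Nfatc1 over Nfatc2 was 0.569 to 0.676 in control and 0.655 to 0.751 in KO, which overlapped. As a share of the summed NFAT level, Nfatc1 took 22.5% to 26.5% in control and 26.9% to 27.8% in KO, Nfatc2 39.3% ± 0.181 and 39.1% ± 2.50, and Nfatc3 36.7% ± 2.04 and 33.6% ± 2.50 (SD, n = 3).

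**Figure D4:**
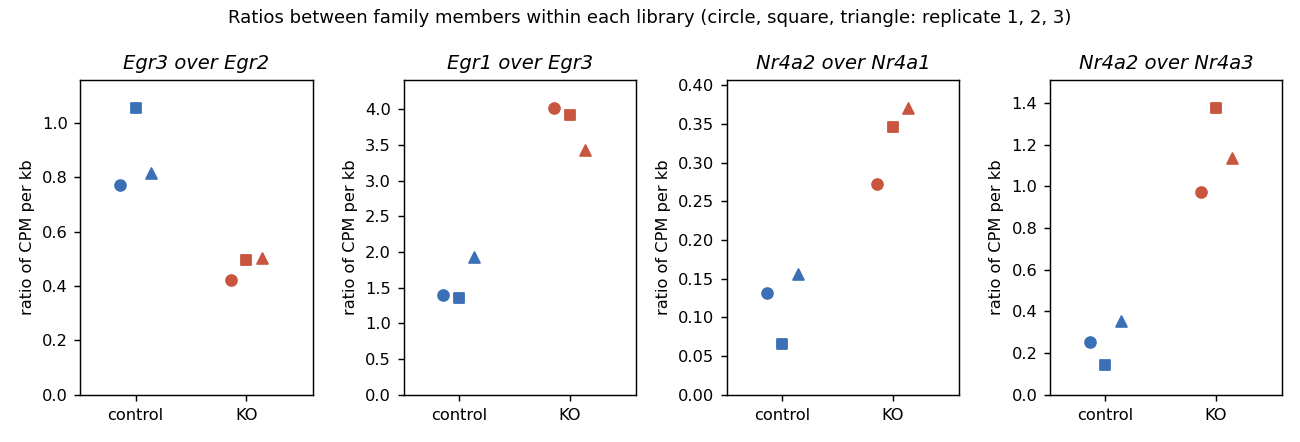
Ratio of 2 family members, as CPM per kilobase of exon, within each library for 4 pairs, with axes from 0. Egr3 over Egr2 runs from 0.771 to 1.05 in control and from 0.424 to 0.502 in KO, and the other 3 ratios have their higher values in KO.

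The genes most like each factor over the 6 libraries were found by the root mean square difference of log2 CPM relative to the control mean, among 9431 other genes with at least 5 CPM and a standard symbol. Nearest to Egr1 was Nab2 (difference 0.17), which encodes an EGR corepressor, with 35.2, 39.9 and 20.9 CPM in control replicates 1 to 3 and 55.9, 61.7 and 52.3 CPM in KO replicates 1 to 3. The next was F2r (0.17), the thrombin receptor gene. Nearest to Nr4a1 were Tbc1d30 (0.17) and Map2k3 (0.22), a MAP kinase kinase gene, and nearest to Nr4a3 were Bcl2a1d (0.19) and Sertad1 (0.23). Nr4a2 had no equally close neighbour, with Col7a1 (0.25) and Plaur (0.26), the urokinase receptor gene, first. Egr2 was nearest to Syn1 (0.090) and Fcrl1 (0.19), and Egr3 to Trmt61a (0.18) and Dbi (0.25). In all of these but Col7a1, control replicate 3 was the lowest of the 6 libraries. The NFAT genes, which hardly varied, had closer neighbours: Zfp644 and Kctd1 for Nfatc1 (0.051 and 0.065), Csnk1g3 and Nudt3 for Nfatc2 (0.058 and 0.061), and Zfp148 and Sh3glb1 for Nfatc3 (0.026 and 0.034).

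Relatives outside the 9 were low or level. Egr4 had 0, 1 and 0 counts in control replicates 1 to 3 and 9, 8 and 3 in KO replicates 1 to 3, and Nfatc4 had 0, 1 and 3 and then 4, 16 and 5, and neither passed the filter on low counts. Nfat5, the calcineurin-independent NFAT gene, held 251 ± 58.7 and 228 ± 23.4 CPM (SD, n = 3; edgeR log2 fold change −0.14 with an SE of 0.180, adjusted p = 0.549).

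Calcium entry and calcineurin genes, which act before NFAT, moved in both directions. Of 14 genes, all tested, 3 were called higher and 3 lower, with a median log2 fold change of 0.087. The background was 23.2% higher and 22.9% lower. Calm2, a calmodulin gene, rose from 273 ± 24.4 to 542 ± 36.3 CPM (SD, n = 3; edgeR log2 fold change 0.99, adjusted p = 0.000560). Ppp3ca, a calcineurin catalytic subunit, rose from 7.80 ± 1.99 to 14.7 ± 2.47 CPM (0.91, adjusted p = 0.0109), and Orai1, the pore of the calcium channel, from 36.6 ± 4.58 to 63.1 ± 15.0 CPM (0.79, adjusted p = 0.00797). Itpr2, a calcium release channel of the endoplasmic reticulum, fell from 65.5 ± 24.9 to 38.4 ± 2.08 CPM (−0.77, adjusted p = 0.0268). Calm3 (0.11, adjusted p = 0.566, and −0.080 without control replicate 3) was not called. Without KO replicate 2 the list had 3 calls, and Ppp3ca (adjusted p = 0.0538) and Itpr2 (adjusted p = 0.0862) were lost. Itpr2 was also lost without KO replicate 3 (adjusted p = 0.0707) and was −0.48 without control replicate 3, and Orai1 was 0.48 with replicate 3 of both groups left out.

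Calcineurin inhibitors and the kinases that rephosphorylate NFAT were mixed as well, with 3 of 12 tested genes called higher and 3 lower (14 on the list, median −0.084). These shares are close to the background of 23.2% and 22.9%. Dyrk2, an NFAT kinase, rose from 22.5 ± 1.70 to 65.5 ± 13.5 CPM (SD, n = 3; edgeR log2 fold change 1.54, adjusted p = 0.000356), and Gsk3a, a kinase of the same group, from 66.3 ± 9.73 to 92.5 ± 7.28 CPM (0.48, adjusted p = 0.0187). Csnk1e, a casein kinase 1 gene, fell from 43.8 ± 3.21 to 21.6 ± 3.91 CPM (−1.02, adjusted p = 0.00133). Rcan1, a calcineurin inhibitor that is itself an NFAT target, fell from 10.6 ± 1.33 to 6.70 ± 1.63 CPM (−0.66, adjusted p = 0.0391). Rcan3 (−0.060, adjusted p = 0.721, turning to 0.029 under plain library-size scaling) and Gsk3b (0.17, adjusted p = 0.246) were not called. The list had 3 calls without control replicate 1 and 2 calls without KO replicate 2 or KO replicate 3. The call of Rcan1 was lost without control replicate 1 or 2 or KO replicate 2 or 3 (adjusted p from 0.0685 to 0.141) and under plain library-size scaling (0.0646), and that of Gsk3a without control replicate 1 or 3 or KO replicate 2 or 3 (adjusted p from 0.0657 to 0.0876), with 0.30 without control replicate 3.

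Regulators around the EGR and NR4A genes (NAB corepressors, serum response factor with its ETS and MRTF partners, MEF2 factors with their class II deacetylases, and CREB) held 10 called genes of 14 tested, 8 higher and 2 lower (15 on the list, median log2 fold change 0.32). Over all tested genes 46.1% were called, 23.2% higher and 22.9% lower. The list was chosen with earlier results of these data known, and no test of it as a set was run. Mef2d, a factor at the Nr4a1 promoter, rose from 57.3 ± 1.32 to 115 ± 16.9 CPM (SD, n = 3; edgeR log2 fold change 1.004, adjusted p = 0.000634). Hdac7, a deacetylase that represses with MEF2 and is known to repress Nr4a1 in thymocytes, fell from 291 ± 31.1 to 141 ± 12.7 CPM (−1.04, adjusted p = 0.000530). Elk4, an ETS partner of serum response factor, rose from 129 ± 15.2 to 250.1 ± 14.2 CPM (0.95, adjusted p = 0.000670), and Nab2 rose from 32.0 ± 9.92 to 56.7 ± 4.76 CPM (0.83, adjusted p = 0.0146). Srf itself (−0.042, adjusted p = 0.779, turning to 0.048 under plain library-size scaling) and Creb1 (0.076, adjusted p = 0.585, turning to −0.034 without control replicate 3) were not called. The list had 6 calls without control replicate 1 and without KO replicate 2, where the call of Nab2 was also lost (adjusted p = 0.0552 and 0.0587), and Nab2 was 0.53 without control replicate 3.

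Of the RXR partners and corepressors of the NR4A receptors, 2 of 6 tested genes were called, both lower (7 on the list, median log2 fold change −0.23). The background was 46.1% called and 22.9% called lower. Rxra, whose product pairs with NR4A1 and NR4A2, fell from 43.4 ± 5.56 to 24.7 ± 7.19 CPM (SD, n = 3; edgeR log2 fold change −0.81, adjusted p = 0.0160). Without KO replicate 2 the list had 1 call. Ncor1 (−0.19, adjusted p = 0.219) and Kdm1a (0.015, adjusted p = 0.930) were not called, and the sign of Kdm1a turned in several fits.

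Other immediate-early genes moved in both directions. Of 16 genes, all tested, 8 were called higher and 3 lower, and the median log2 fold change was 0.50. Background shares were 23.2% higher and 22.9% lower. Fos rose from 7.40 ± 1.80 to 35.6 ± 5.46 CPM (SD, n = 3; edgeR log2 fold change 2.28 with an SE of 0.210, adjusted p = 0.000179). Ier5 rose from 46.5 ± 7.10 to 167 ± 20.4 CPM (1.85, adjusted p = 0.000114), Zfp36, whose product destabilises short-lived RNAs, from 31.9 ± 5.43 to 110.2 ± 11.3 CPM (1.79, adjusted p = 0.000136), and the phosphatase gene Dusp1 from 15.8 ± 1.99 to 31.6 ± 6.41 CPM (0.998, adjusted p = 0.00274). Junb (−0.21, adjusted p = 0.245) and Klf6 (−0.14, adjusted p = 0.308) were not called.

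Genes known as NFAT targets in T cells had a median log2 fold change of −0.67, with 7 of 14 tested genes called lower and 3 higher (15 on the list). Among all tested genes 22.9% were called lower and 23.2% higher. Il4 fell from 7.96 ± 3.54 to 1.21 ± 0.432 CPM (SD, n = 3; edgeR log2 fold change −2.70, adjusted p = 0.00166). Il21 (−2.16, adjusted p = 0.000236) and Il2ra (−1.52, adjusted p = 0.000264) fell from far higher levels, 724 ± 72.3 and 3494 ± 247.5 CPM in control. Tox, the gene of a nuclear factor of exhausted T cells that is also listed as an NR4A target, rose from 4.98 ± 0.265 to 15.7 ± 1.40 CPM (1.65, adjusted p = 0.000259). Tnf (0.46, adjusted p = 0.0667, and 0.0337 with the replicate block) and Tnfrsf9 (0.33, adjusted p = 0.491, and 0.0341 with the block) were not called. Tnf was 0.22 and Tnfrsf9 0.74 without control replicate 3, and over all fits with 1 library left out Tnfrsf9 ran from 0.0051 to 0.74.

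Genes known as EGR2 or EGR3 targets were called in 6 of 15 tested cases, 4 higher and 2 lower (16 on the list, median log2 fold change 0.045). This is not above the 46.1% of all tested genes. With the replicate block 10 were called, in a fit that called 53.5% of all genes. Sema7a, a semaphorin gene, rose from 30.007 ± 12.6 to 154 ± 17.8 CPM (SD, n = 3; edgeR log2 fold change 2.36, adjusted p = 0.000585), and Socs3, a cytokine signalling inhibitor, from 85.7 ± 16.5 to 215 ± 16.6 CPM (1.33, adjusted p = 0.000395). Nab2, given above, is also on this list. Nrn1, the neuritin gene, fell from 16.3 ± 2.48 to 3.34 ± 1.39 CPM (−2.31, adjusted p = 0.000606). Dgka, a diacylglycerol kinase gene of T cell anergy, was not called (0.32, adjusted p = 0.113, and 0.0419 with the block).

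Genes known as NR4A targets were called in 8 of 12 cases, all tested, 6 higher and 2 lower, with a median log2 fold change of 0.68. Over all tested genes 46.1% were called, 23.2% higher and 22.9% lower. The list was chosen with earlier results known and was not tested as a set. Havcr2, which encodes the inhibitory receptor TIM-3, held 0, 0.206 and 0.285 CPM in control replicates 1 to 3 and 5.62, 6.94 and 7.47 CPM in KO replicates 1 to 3 (5.08, SE 0.525, edgeR adjusted p = 0.000264). Ikzf2, the gene of HELIOS, rose from 10.8 ± 2.92 to 35.9 ± 10.1 CPM (SD, n = 3; 1.73, adjusted p = 0.00109). Ctla4, an inhibitory receptor gene, fell from 1002 ± 30.2 to 236 ± 16.2 CPM (−2.09, adjusted p = 3.86e-05). Batf (−0.25, adjusted p = 0.143) and Entpd1 (−0.64, adjusted p = 0.0651, and 0.0451 with the replicate block) were not called. The target lists share members: the NFAT and NR4A lists each hold Il2ra, Pdcd1 and Tox. The NFAT list and the list of EGR2 or EGR3 targets each hold Tnfrsf9.

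**Figure D5:**
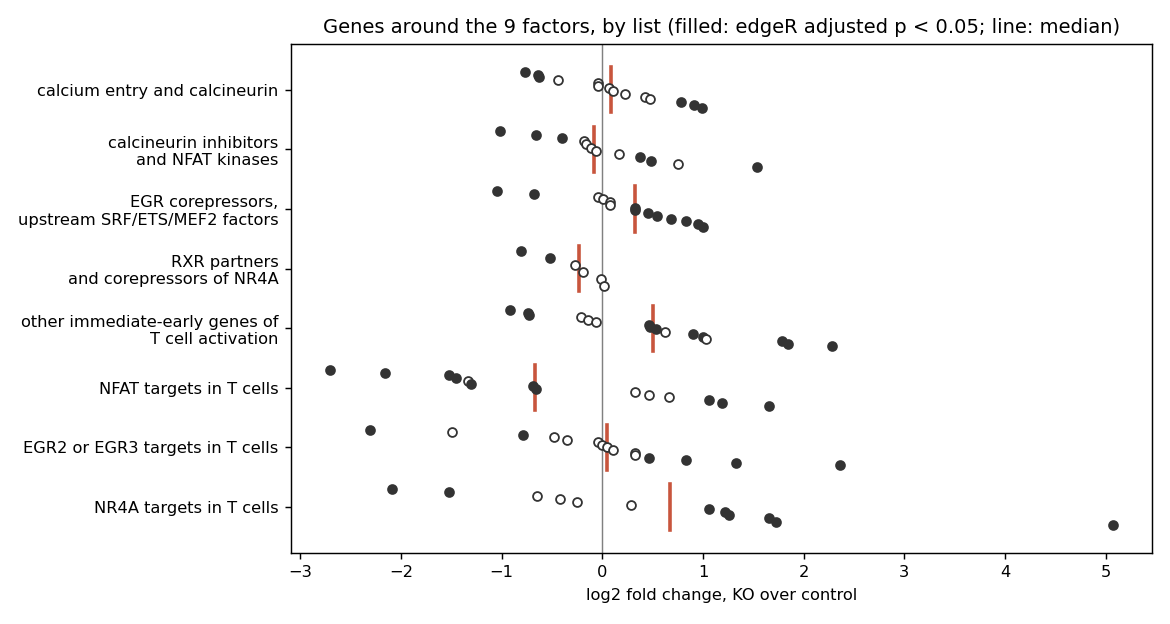
Log2 fold change of KO over control for every tested gene of 8 lists around the 9 factors, 1 point per gene and a red line at the list's median; filled points passed an edgeR adjusted p under 0.05. The list of regulators with SRF, ETS and MEF2 factors and the immediate-early list lie mostly above 0, the NFAT target list mostly below 0, and the calcium and kinase lists on both sides.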

How the data were processed

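Raw gene counts, as deposited by the authors, were used as the unit of every test. STAR, featureCounts, DESeq2 and the mm10 build are named in the submitters' processing notes, and versions, annotation and strand setting are not given in the sources used here. The 9 genes and all lists were chosen with earlier results of these data known. Counts were tested with edgeR 4.0.16 (R 4.3.3; quasi-likelihood test, TMM factors, filterByExpr), with Benjamini-Hochberg adjustment over 14268 genes, which held 99.9% of counts. The SE is the log2 fold change over the square root of F. The test was tried on simulated counts first. Exon lengths, gene positions and overlaps are from GENCODE M21 (GRCm38), which held 98.4% of the symbols.

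Named were all 9 genes, Rtf1, in each list the 4 called genes with the largest change and the 2 uncalled genes with the highest level, and the 2 genes most like each factor. Some genes that this rule or the marker lists hold are not reported here. Marker lists covered T, Th17, B, myeloid, CD8 and NK, erythroid and fibroblast cells. The B cell sum was 1.24 to 3.09 CPM in control and 1.74 to 2.62 in KO, the CD8 and NK sum 6.93 to 10.5 and 6.49 to 11.8, with Ncr1 and Klrb1c at 0, the erythroid sum 1.18 to 2.92 and 0.935 to 2.03, and the fibroblast sum 0.486 to 0.665 and 0.107 to 0.797, with Col3a1 at 0. Deviations from the group means correlated at 0.270, 0.130 and 0.379 for libraries with replicate numbers 1, 2 and 3. Control replicate 2 with KO replicate 1 gave 0.204, above the value of control replicate 2 with KO replicate 2. The replicate 3 libraries are the male ones, so sex and pairing cannot be told apart there. The numbers were read as pairing for the replicate block, although the labels do not say what they stand for. The 15 alternatives covered scaling, the DESeq2 1.42.0 test, filters, the replicate block and libraries left out.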

Additional observations from a re-analysis of the deposited data

How the results depend on the processing

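Nr4a2, Nr4a1 and Egr1 were called higher in all 15 alternatives. Members called lower numbered 0 to 1 over the fits that left out 1 library, and 1 with replicates 1 and 2 alone, in each case Egr3. With the replicate block, Nr4a3 was called, calls among EGR2 or EGR3 targets went to 10, and 53.5% of all genes were called. Nr4a3 was also called with the DESeq2 test (adjusted p = 0.0479) and with no filter beyond any count (adjusted p = 0.0354). Leaving out 1 library gave 4460 to 7050 calls over all genes, 3 to 7 in the calcium list, 2 to 5 in the kinase list (3 with replicates 1 and 2 alone), 6 to 9 in the list with SRF, ETS and MEF2 factors and 1 to 2 in the RXR list. Fewer libraries were in these fits. Signs turned, for genes not called in either direction, under plain library-size scaling, which moved the median of all genes to 0.10: Nfatc2 0.053, Rcan3 0.029, Srf 0.048, Csnk1g3 0.054 and Nudt3 0.035. With upper-quartile factors Kdm1a was −0.00041. With replicates 1 and 2 alone Calm3 was −0.019, Rcan3 0.090 and Kdm1a −0.028. With 1 library left out the ranges were Nfatc2 −0.10 to 0.066, Calm3 −0.080 to 0.24, Rcan3 −0.14 to 0.032, Creb1 −0.034 to 0.12, Kdm1a −0.13 to 0.10, Csnk1g3 −0.10 to 0.021, Nudt3 −0.12 to 0.033, Fcrl1 −0.097 to 0.49. The cause was not tested.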
